A study of Mus musculus with 4 samples.

Results

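The 10 genes described here encode amino acid transporters of the plasma membrane (*Slc7a5*, *Slc7a6*, *Slc3a2*, *Slc1a5*, *Slc1a4*, *Slc38a1*, *Slc38a2*, *Slc7a1*, *Slc6a9* and *Slc43a2*), and they were taken as a named family, by gene symbol and with earlier results of these data known, from the 39179 genes counted in each library. All 10 were among the 11483 genes that passed the filter on low counts. Transcripts of *Slc7a1*, the arginine and lysine carrier, were 1.93-fold lower in tumor repopulating cells (TRCs) than in parental B16F1 cells, and those of *Slc38a2*, a sodium-coupled carrier of glutamine and alanine, were 1.73-fold lower. Transcripts of *Slc43a2*, a carrier of leucine and related large neutral amino acids, were 2.18-fold higher in TRCs. Each of these differences failed the test when certain single libraries were left out. The 7 other transporters, among them both chains of the main leucine exchanger, *Slc7a5* and *Slc3a2*, did not pass the test, and for 5 of these 7 the 2 parental libraries differed more from each other than the groups did.

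The B16F1 line was derived from mouse melanoma, and polyA RNA of 4 samples was sequenced, 2 of parental B16F1 cells and 2 of TRCs. TRCs are the B16F1 cells that survived and grew into spheroids in soft fibrin gels (90 Pa) until they were taken out on day 5, and the samples of each group carry the replicate numbers 1 and 3. The labels name no genotype or drug for either group, and both descend from the same cell line. The gel, growth as spheroids and the selection of surviving cells came together in the TRC group, so their shares in a difference cannot be told apart. Nothing in the labels states whether the samples of a group came from separate cultures, and p-values measure only the spread between these samples.

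Cells take up amino acids through carriers that differ in substrate and in what drives them. Sodium-coupled carriers accumulate small neutral amino acids such as glutamine, and exchangers then trade these for leucine and other large neutral amino acids, whose arrival activates the growth kinase complex mTORC1. When amino acids run short, uncharged tRNA activates the kinase GCN2 (*Eif2ak4*), translation of the transcription factor ATF4 increases, and ATF4 with its partners raises transcription of many transporter and synthesis genes through the amino acid response element in their promoters or introns. Melanoma cells also use amino acids as precursors, since pigment is made from tyrosine.

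Between 35948295 and 43511554 reads per library were counted on genes, so that 3 counts, taken as the limit of detection, amount to 0.0674 to 0.0849 CPM, a limit that covers counting error only. CPM here are counts per 1000000 counts of the TMM-scaled library total. Alignments that were not unique made up 15.2% to 25.2% per library, the latter in TRC replicate 3. The 7 melanocyte markers were all expressed, with a sum of 15697 to 18892 CPM in parental cells and 23939 to 26641 CPM in TRCs. Of 5 leukocyte markers 3 were at 0 in every library. Of the others, *Cd68* was at 1.59 to 4.11 CPM and *Lyz2* at 0.0721 to 0.809 CPM, both highest in parental replicate 1. The leukocyte markers summed to 4.92 and 2.04 CPM in parental replicates 1 and 3, and 1.66 and 2.09 CPM in TRC replicates 1 and 3. The 6 markers of endothelial, fibroblast and epithelial cells together stayed at or below 0.876 CPM. In bulk RNA, fewer cells of a type and less RNA per cell cannot be told apart. Parental replicate 1 stood apart in genes of the amino acid response. *Trib3*, a pseudokinase induced by ATF4, was at 239 CPM there, against 25.3 in parental replicate 3 and 24.9 and 84.1 in the TRC libraries, and *Ddit3* (CHOP) was at 139 CPM against 18.8, 31.0 and 54.7. Each transporter is therefore also given without that library.

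Of the 10 transporters, 1 was called higher in TRCs (8.81% of all genes tested were) and 2 lower (7.05% of all genes tested were) by the edgeR exact test at a Benjamini-Hochberg FDR under 0.05 over all genes tested. In either direction 15.9% of all genes tested were called. The log2 fold change was below zero for 9 of the 10 transporters, and for 5710 of the 11483 genes tested. Its median was −0.44 over the transporters against 0.0034 for all genes tested. Without parental replicate 1 it was above zero for *Slc7a5* (0.25), *Slc3a2* (0.15), *Slc1a5* (0.023) and *Slc6a9* (0.72), and −0.13 for *Slc1a4*. The groups did not overlap for 5 transporters, 1 with both TRC libraries above both parental libraries (30.2% of all genes tested) and 4 with both TRC libraries below (30.4%), beside 60.6% of all genes tested in either direction. Summed over the 10 transporters, the level per kilobase of exon was 525 and 371 CPM per kilobase in parental replicates 1 and 3, against 329 and 306 in the TRC libraries.

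**Figure D1:**
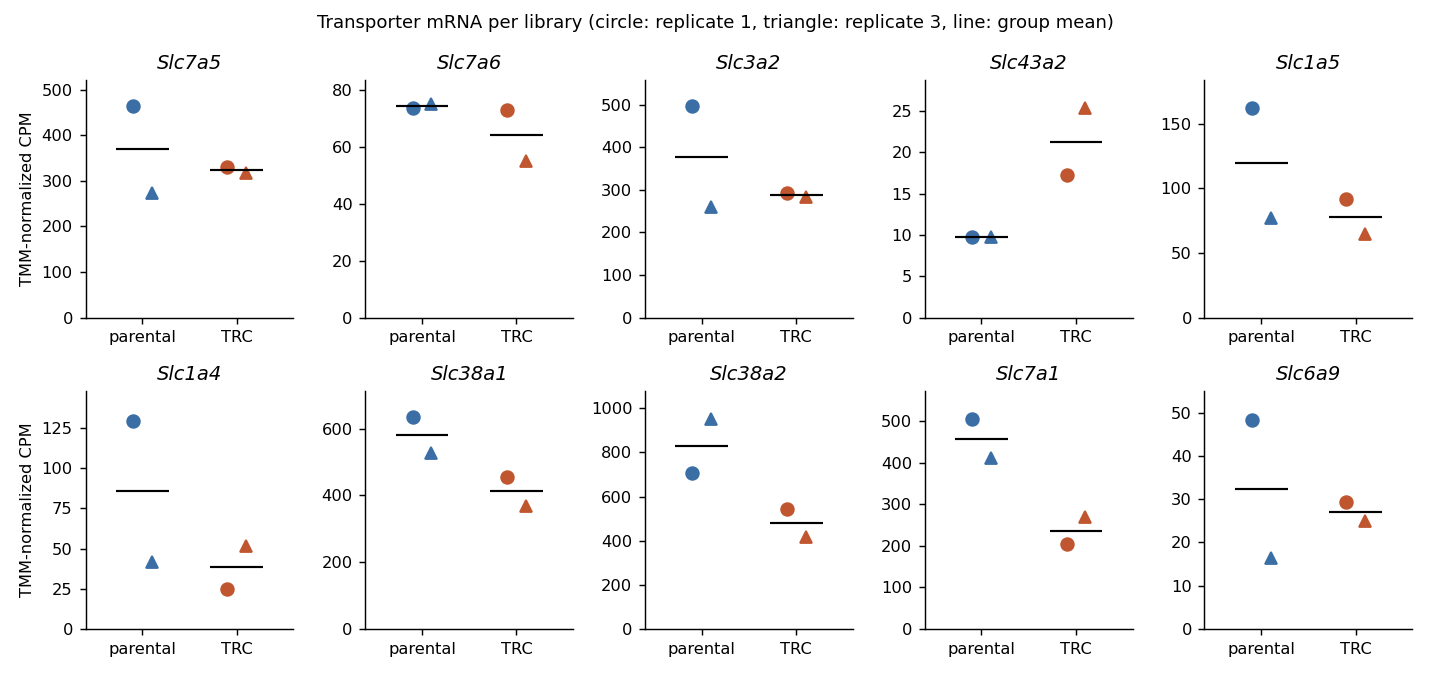
Each panel shows 1 of the 10 transporters, with CPM on the vertical axis (TMM-scaled), 1 point per library (circles, replicate 1, and triangles, replicate 3) and a line at each group mean. The TRC points lie below both parental points for *Slc7a1*, *Slc38a2*, *Slc38a1* and *Slc7a6* and above both for *Slc43a2*, while parental replicate 1 is the highest point for *Slc7a5*, *Slc3a2*, *Slc1a5*, *Slc1a4* and *Slc6a9*.

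The panels of CPM by library show both kinds of spread, that between the groups and that within the parental group. *Slc7a5* and *Slc3a2*, the chains of the main leucine exchanger, showed the second kind. Exchangers of this family are made of a light chain that carries the amino acids and a common heavy chain, *Slc3a2* (CD98), that brings it to the membrane. *Slc7a5* (ENSMUSG00000040010, GRCm38 chromosome 8, 121881150 to 121907694, minus strand) encodes LAT1, the light chain that takes up leucine, phenylalanine and tryptophan in exchange for intracellular amino acids. It measured 465 and 273 CPM in parental replicates 1 and 3, and 330.2 and 317 CPM in TRC replicates 1 and 3. The TRC libraries lay between the parental libraries, and the log2 fold change of −0.19 (SE 0.27) had an FDR of 0.709 in the edgeR exact test. With parental replicate 1 left out it was 0.25 (FDR 0.614).

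*Slc3a2* (ENSMUSG00000010095, chromosome 19, 8706882 to 8723369, minus strand) measured 496 and 259.8 CPM in the parental libraries and 292 and 283 CPM in TRCs. Again both TRC values lay between the parental values (log2 fold change −0.40, SE 0.30, FDR 0.393 in the edgeR exact test). Without parental replicate 1 the log2 fold change was 0.15 (FDR 0.784). *Slc7a6* (ENSMUSG00000031904, chromosome 8, 106168857 to 106198706, plus strand) encodes the light chain of the exchanger that releases arginine against neutral amino acids and sodium. It measured 73.7 and 75.1 CPM in parental cells and 73.2 and 55.2 CPM in TRCs. Both TRC values were below both parental values, TRC replicate 1 by a narrow margin, and the log2 fold change of −0.21 (SE 0.23) had an FDR of 0.600 in the edgeR exact test. It was −0.23 (FDR 0.617) without parental replicate 1.

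Per kilobase of exon, *Slc7a5* and *Slc3a2* were at nearly equal levels in every library. The log2 ratio of *Slc7a5* to *Slc3a2* was −0.16 in parental replicate 1 and 0.00084 in parental replicate 3, against 0.11 and 0.095 in the TRC libraries. The difference of 0.18 between groups had a two-sided p of 0.333 in the exact permutation test, the smallest that 2 libraries against 2 can give. With the length of the longest transcript in place of all exons, the 4 ratios ran from −0.42 to −0.14, so the equality of the 2 levels depends on the gene model. The ratios of *Slc7a6* to *Slc3a2* and of *Slc7a5* to *Slc7a6* differed between the groups by 0.094 and 0.089 on the log2 scale, with overlapping groups and an exact permutation p of 1.

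*Slc43a2* (ENSMUSG00000038178, chromosome 11, 75531694 to 75577575, plus strand) encodes LAT4, which lets leucine, isoleucine, phenylalanine and methionine pass down their gradient and needs no heavy chain. It measured 9.79 and 9.74 CPM in parental cells, and 17.2 and 25.4 CPM in TRCs. Both TRC libraries were above both parental libraries, which were nearly equal, and the rise of 1.13 on the log2 scale (SE 0.30) had an FDR of 0.0110 in the edgeR exact test. Without parental replicate 1 the log2 fold change was again 1.13 (FDR 0.0433), but the call was lost without parental replicate 3 (1.12, FDR 0.0802) and without TRC replicate 3 (0.81, FDR 0.314). An antisense gene, *Gm45606*, overlaps 9.18% of its exon bases and was not counted in these libraries, and whether the counting used strand is not given in the sources used here. The log2 ratio of *Slc7a5* to *Slc43a2* per kilobase was 7.01 and 6.25 in parental cells and 5.70 and 5.08 in TRCs, without overlap (difference −1.24, exact permutation p = 0.333). As linear ratios, *Slc7a5* was 98.8 times the level of *Slc43a2* in parental cells and 41.9 times in TRCs, from the mean log2 ratios.

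The carriers of cationic and small neutral amino acids held both of the transporters that fell. *Slc7a1* (ENSMUSG00000041313, chromosome 5, 148327410 to 148399904, minus strand) encodes CAT1, the widely expressed carrier for arginine, lysine and ornithine. It measured 506 and 411 CPM in parental cells and 204 and 269.6 CPM in TRCs. Both TRC libraries were below both parental libraries, and the log2 fold change of −0.95 (SE 0.23) had an FDR of 0.0023 in the edgeR exact test. It was −0.79 (FDR 0.0372) without parental replicate 1, and the call was lost without TRC replicate 1 (−0.78, FDR 0.134).

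*Slc38a2* (ENSMUSG00000022462, chromosome 15, 96687392 to 96699730, minus strand) encodes SNAT2, which brings in alanine, serine, glutamine and other small neutral amino acids with sodium and is known to increase when amino acids are scarce. It measured 705 and 953 CPM in parental replicates 1 and 3, and 544 and 417 CPM in TRC replicates 1 and 3. The groups did not overlap, and parental replicate 1 was the lower of the parental libraries (log2 fold change −0.79, SE 0.24, FDR 0.0182 in the edgeR exact test). Without parental replicate 1 the fall was 0.99 on the log2 scale (FDR 0.00805). The call was lost without parental replicate 3 (−0.55, FDR 0.286) and without TRC replicate 3 (−0.61, FDR 0.276), and also by edgeR's quasi-likelihood test on all 4 libraries (FDR 0.0789). Its neighbour *Slc38a1* (ENSMUSG00000023169, 96571418 to 96642913, minus strand) lies 44.5 kilobases away on the same strand and encodes SNAT1, a carrier of much the same substrates. It measured 634 and 528 CPM in parental cells and 456 and 369.5 CPM in TRCs. Both TRC libraries were below both parental libraries, but the log2 fold change of −0.49 (SE 0.21) did not pass the edgeR exact test (FDR 0.155), nor did that of −0.35 without parental replicate 1 (FDR 0.431). The log2 ratio of *Slc38a2* to *Slc38a1* per kilobase differed by −0.29 between the groups, which overlapped (exact permutation p = 1).

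*Slc1a5* (ENSMUSG00000001918, chromosome 7, 16781340 to 16798274, plus strand) encodes ASCT2, a sodium-dependent exchanger through which many tumor cells take up glutamine. It measured 162 and 76.7 CPM in parental replicates 1 and 3, and 91.5 and 64.3 CPM in TRC replicates 1 and 3. The groups overlapped, since TRC replicate 1 exceeded parental replicate 3 (log2 fold change −0.62, SE 0.34, FDR 0.199 in the edgeR exact test). Without parental replicate 1 the log2 fold change was 0.023 (FDR 0.980), and without parental replicate 3 it was −1.06, which was called (FDR 0.00568).

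*Slc1a4* (ENSMUSG00000020142, chromosome 11, 20302180 to 20332713, minus strand) encodes ASCT1, an exchanger of alanine, serine and cysteine. It measured 129 and 41.8 CPM in parental replicates 1 and 3, and 24.8 and 51.9 CPM in TRC replicates 1 and 3. Parental replicate 1 was 3.09-fold above parental replicate 3, TRC replicate 3 was 2.09-fold above TRC replicate 1, and the groups overlapped. The log2 fold change of −1.16, the largest in size among the 10 transporters, had an SE of 0.89 and an FDR of 0.0581 in the edgeR exact test. It was −0.13 (FDR 0.856) without parental replicate 1. It was called without parental replicate 3 (−1.75, FDR 7.22e-05), without TRC replicate 3 (−1.80, FDR 0.0276) and with library size in place of TMM scaling (FDR 0.0465). The log2 ratio of *Slc1a5* to *Slc1a4* differed by 0.49 between groups that overlapped (exact permutation p = 1).

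*Slc6a9* (ENSMUSG00000028542, chromosome 4, 117834506 to 117875198, plus strand) encodes GlyT1, the sodium- and chloride-coupled glycine carrier. It measured 48.4 and 16.5 CPM in parental replicates 1 and 3 and 29.3 and 24.99 CPM in TRC replicates 1 and 3, so that both TRC libraries lay between the parental libraries. The log2 fold change was −0.26 (SE 0.42, FDR 0.730 in the edgeR exact test), and 0.72 (FDR 0.144) without parental replicate 1. *Ccdc24* on the opposite strand overlaps 27.8% of the exon bases of *Slc6a9*, with 2 to 20 counts of its own per library.

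**Figure D2:**
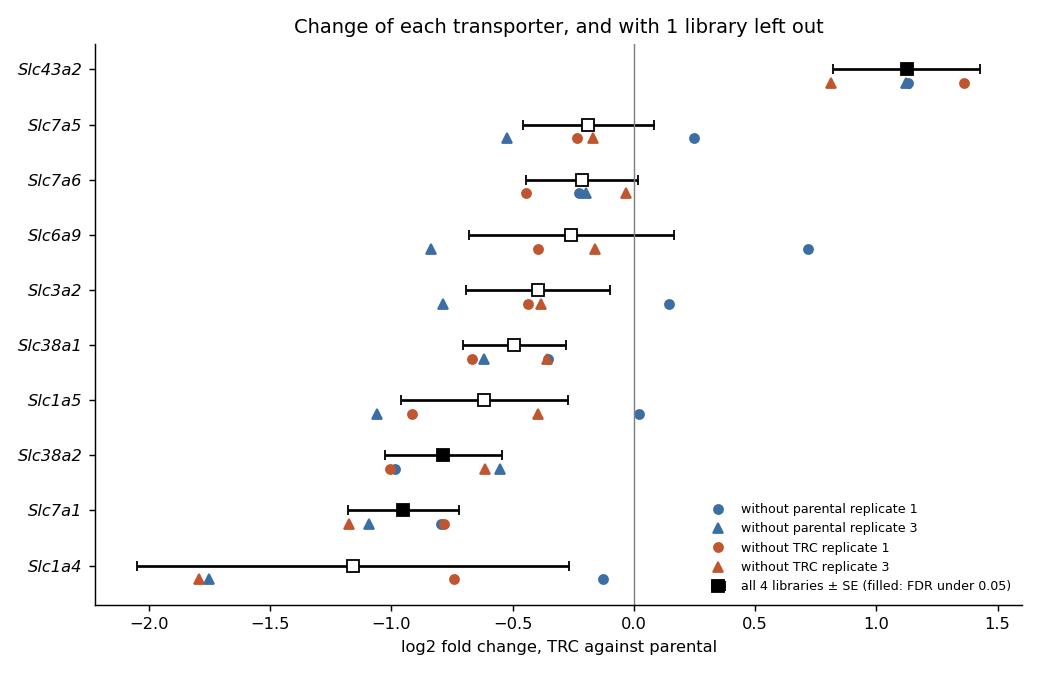
Points show the log2 fold change of TRCs against parental cells for each transporter with all 4 libraries (bars, 1 SE) and with each library left out in turn. *Slc7a1*, *Slc38a2* and *Slc43a2* keep their side of zero in every fit, whereas *Slc7a5*, *Slc3a2*, *Slc1a5* and *Slc6a9* move above zero without parental replicate 1.

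In the plot of fold changes with each library left out, 6 transporters kept their direction in all 4 reduced fits (*Slc7a1*, *Slc38a2*, *Slc38a1*, *Slc7a6*, *Slc1a4* and *Slc43a2*), although each of the 3 calls was lost in at least 1 of them. The order of the transporters by level changed little. In parental cells the mean level per kilobase of exon was highest for *Slc3a2* (107 CPM per kilobase), followed by *Slc7a5* (99.5), *Slc38a2* (93.8), *Slc7a1* (39.7), *Slc38a1* (33.7), *Slc1a5* (28.6), *Slc1a4* (21.8), *Slc7a6* (16.3), *Slc6a9* (6.31) and *Slc43a2* (0.973). The ranges of the parental libraries overlapped among the first 3, so their order is not resolved, and so did those of each pair of neighbours from *Slc7a1* to *Slc7a6*. In TRCs the order was *Slc7a5* (87.3 CPM per kilobase), *Slc3a2* (81.4), *Slc38a2* (54.4), *Slc38a1* (24.0), *Slc7a1* (20.5), *Slc1a5* (18.7), *Slc7a6* (14.0), *Slc1a4* (9.77), *Slc6a9* (5.28) and *Slc43a2* (2.12). There both values of *Slc38a2*, 61.6 and 47.2, lay below both values of *Slc7a5* and of *Slc3a2*. The ranges of *Slc38a1*, *Slc7a1* and *Slc1a5* overlapped, as did those of *Slc1a5* and *Slc7a6* and those of *Slc7a6* and *Slc1a4*. Some places depend on the gene model. By the longest transcript the parental order began with *Slc38a2*, *Slc3a2* and *Slc7a5*, and the TRC order with *Slc3a2* and *Slc7a5*. *Slc38a1*, whose exons add up to 17236 bases against 7266 in its longest transcript, then also came before *Slc7a1* in parental cells.

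The difference between the parental libraries was not shared by all transporters. On the log2(CPM + 0.5) scale, parental replicate 1 exceeded parental replicate 3 by 1.62 for *Slc1a4*, 1.53 for *Slc6a9*, 1.08 for *Slc1a5*, 0.93 for *Slc3a2* and 0.77 for *Slc7a5*. The first 4 were beyond the value of 0.85 that 95% of all genes tested stayed below, and *Slc7a5* was above 93.6% of the genes. The same difference was 0.30 for *Slc7a1*, 0.26 for *Slc38a1*, 0.0078 for *Slc43a2*, −0.028 for *Slc7a6* and −0.43 for *Slc38a2*. The 3 transporters called between groups are all among the 5 with a small or opposite difference between the parental libraries. This match is partly built into the test, because the spread between libraries of a group enters the dispersion of each gene. Over the 10 transporters the median difference was 0.53, against −0.0045 over all genes tested.

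Target genes of the amino acid response other than transporters differed between the parental libraries in the same direction, 13 of 14 being higher in parental replicate 1 with a median of 1.26 on the log2 scale. Of 14 transcription factors and kinases in the list of the response, 9 were higher there, with a median of 0.45. This list is broad and includes *Hif1a*, *Epas1*, *Myc*, *Max* and *Nfe2l2*, which are not part of the GCN2 and ATF4 response described above. Their differences ran from −0.21 (*Hif1a*) to 0.050 (*Max*). Those of *Atf4*, *Atf3*, *Atf5*, *Cebpb*, *Cebpg*, *Ddit3* and *Trib3* ran from 0.85 to 3.21. The kinases *Eif2ak4* and *Eif2ak3* were at −0.077 and −0.18. *Asns*, the asparagine synthetase, measured 558 CPM in parental replicate 1 against 164 in parental replicate 3, and 239 and 252 CPM in the TRC libraries. *Atf4* itself measured 836 and 465 CPM in parental replicates 1 and 3, and 299 and 491 CPM in TRC replicates 1 and 3. In TRCs 3 of the 14 targets and 4 of the 14 factors were higher in replicate 1 than in replicate 3, with medians of −0.29 and −0.21, and *Slc1a4* was lower in replicate 1 (−1.05). The part of this difference between libraries in the fold changes of the transporters was not tested.

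**Figure D3:**
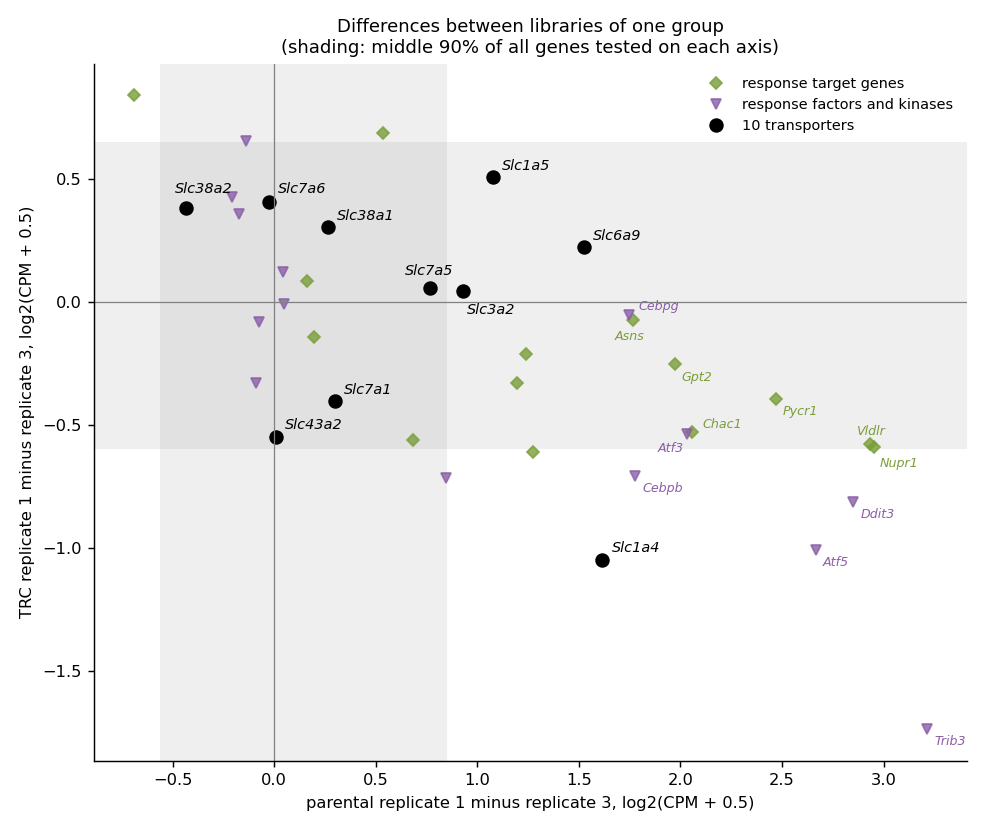
The difference between replicates 1 and 3, in log2(CPM + 0.5), is plotted for parental cells (horizontal axis) and TRCs (vertical axis), with 1 point per gene for the 10 transporters and the tested genes of the amino acid response, and shading over the middle 90% of all genes tested. *Slc1a4* lies at 1.62 and −1.05, outside both shaded bands, and *Slc38a2*, *Slc7a6*, *Slc38a1*, *Slc7a1*, *Slc43a2* and *Slc7a5* lie inside both shaded bands.

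In the plot of differences between libraries, *Slc1a4* is the 1 transporter outside the middle range on both axes. The promoters were searched for the core of the amino acid response element, TGATGNAA, on both strands of 300 bases per start site (250 before and 50 after it, RefSeq, GRCm38.p6). Windows were found for 7 of the 10 transporters, all but *Slc7a5*, *Slc1a5* and *Slc38a1*. The core was present in 1 of these 7, *Slc1a4*, where it spans the start of transcription, and in 4.51% of all 27025 genes with a window (3.97% of 32851 windows). It was present in 7 of 27 genes of the amino acid response, a list that includes genes known for this element and so is no independent evidence. Of the other plasma membrane transporters, 19 had a window and 2 held the core, *Slc7a11*, the cystine carrier, and *Slc7a7*. In *Slc7a11* it occurs at 2 places before the start. In *Slc7a7* it lies at −141 to −134 and at −1 to 7, and that gene's log2 fold change was 0.011 (FDR 0.994 in the edgeR exact test). In the same windows the E-box CACGTG, bound by MYC and MAX, was in 0 of the 7 transporters and in 8.09% of all genes, and ACGTG, the core bound by HIF1A, which every CACGTG also contains, was in 2 of the 7 (*Slc7a6* and *Slc3a2*) and in 21.8%. A match of letters is a description and not evidence of binding. The element of *Slc1a4* is shown here beside those of the response genes with the core before the start, all but *Trib3*, whose core lies after it, and of *Slc7a11*, each 5′ to 3′ on the strand of its gene with the core in capitals.
Slc1a4, chr11:20332699-20332728, minus strand, core at −4 to 4 from the start: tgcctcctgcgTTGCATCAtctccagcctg
Chac1, chr2:119351038-119351067, plus strand, core at −193 to −186: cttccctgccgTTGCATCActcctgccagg
Nupr1, chr7:126625562-126625591, minus strand, core at −110 to −103: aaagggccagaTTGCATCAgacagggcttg
Atf3, chr1:191183425-191183454, minus strand, core at −110 to −103: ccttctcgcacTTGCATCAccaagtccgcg
Vldlr, chr19:27216809-27216838, plus strand, core at −200 to −193: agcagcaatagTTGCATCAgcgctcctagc
Pycr1, chr11:120643833-120643862, minus strand, core at −103 to −96: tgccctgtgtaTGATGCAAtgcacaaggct
Asns, chr6:7693214-7693243, minus strand, core at −23 to −16: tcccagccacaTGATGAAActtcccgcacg
Slc7a11 upstream copy, chr3:50443661-50443690, minus strand, core at −66 to −59: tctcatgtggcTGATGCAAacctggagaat
Slc7a11 downstream copy, chr3:50443642-50443671, minus strand, core at −47 to −40: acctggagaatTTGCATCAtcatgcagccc

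*Slc1a4*, *Chac1*, *Nupr1*, *Atf3*, *Vldlr* and the downstream copy of *Slc7a11* carry the same 8 letters, TTGCATCA, in the shown strand, and their levels did not follow 1 pattern. *Chac1*, which degrades glutathione, measured 69.6 and 16.4 CPM in parental replicates 1 and 3 and 21.9 and 31.9 CPM in the TRC libraries. *Nupr1*, a stress-induced nuclear protein, measured 34.1 and 3.96 CPM in parental cells and 10.3 and 15.7 CPM in TRCs. *Vldlr*, a lipoprotein receptor, measured 16.7 and 1.76 CPM in parental cells and 29.0 and 43.5 CPM in TRCs. *Atf3* measured 26.8 and 6.17 CPM in parental cells and 4.44 and 6.67 CPM in TRCs. Parental replicate 1 was the highest library for *Slc1a4*, *Chac1*, *Nupr1*, *Atf3* and *Slc7a11*, whereas both TRC libraries were above it for *Vldlr*.

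*Slc7a11* was the most changed gene of the other plasma membrane transporters. It encodes xCT, the light chain that joins *Slc3a2* to import cystine, from which glutathione is made, in exchange for glutamate. It measured 329.6 and 181.6 CPM in parental replicates 1 and 3, and 10.3 and 33.7 CPM in TRC replicates 1 and 3. Both TRC libraries were far below both parental libraries, and the log2 fold change of −3.54 (SE 0.87) had an FDR of 6.09e-11 in the edgeR exact test. It was called with each library left out, at −4.65 without TRC replicate 3 and −2.94 without TRC replicate 1. *Slc7a8*, the light chain LAT2 of a broad neutral amino acid exchanger, measured 1.98 and 3.43 CPM in parental cells and 14.7 and 3.77 CPM in TRCs. TRC replicate 1 was well above the other 3 libraries, and the log2 fold change was 1.77 (SE 0.61, FDR 0.0287 in the edgeR exact test). Without TRC replicate 1 it was 0.47 (FDR 0.746), and the call was also lost without parental replicate 1 (FDR 0.187) and without parental replicate 3 (FDR 0.0613). Of the 28 other plasma membrane transporters in the list, 10 were at 0 in every library and 8 were tested. Of these, 1 was called higher and 1 lower, beside 8.81% higher and 7.05% lower among all genes tested. Their median log2 fold change was 0.24.

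Because several light chains share *Slc3a2*, their makeup was also computed, for a set of 6 light chains put together after the values were seen. *Slc7a5* made up 74.4% and 70.0% of the summed level per kilobase in parental replicates 1 and 3, against 80.3% and 83.2% in the TRC libraries. *Slc7a11* made up 14.1% and 12.4% in parental cells and 0.664% and 2.35% in TRCs. *Slc7a6* made up 9.57% and 15.6% in parental cells and 14.4% and 11.7% in TRCs, with overlapping groups. The summed light chains over *Slc3a2* were at ratios of 1.199 and 1.43 in parental cells and 1.34 and 1.28 in TRCs, the latter inside the parental range. *Slc7a10* was at 0 in every library. These are shares of transcripts per length and say nothing of protein or of complexes.

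**Figure D4:**
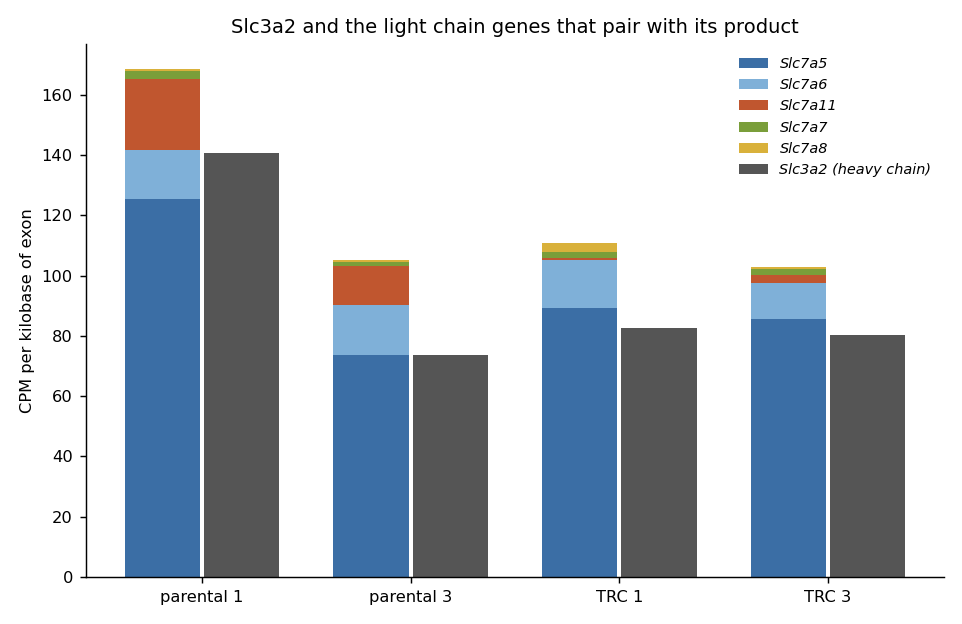
Stacked bars give the level per kilobase of exon (CPM per kilobase) of the light chains that pair with *Slc3a2* in each of the 4 libraries, beside a grey bar for *Slc3a2*. The segment of *Slc7a11* shrinks from 23.7 and 13.04 CPM per kilobase in the parental libraries to 0.737 and 2.42 in the TRC libraries, while *Slc7a5* is the largest segment in each of the 4 libraries.

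In the bars of light chain levels the groups are apart for *Slc7a11*, whereas the level of *Slc7a5*, the largest component, overlaps between them. Inside the cell, 7 lysosomal transporters were tested, of which 1 was called lower in the edgeR exact test and 0 higher (0 also at an unadjusted p under 0.05, by the quasi-likelihood test and by DESeq2), with a median log2 fold change of −0.21. Among all genes tested, 7.05% were called lower and 8.81% higher. *Slc38a7*, which exports glutamine and asparagine from lysosomes, measured 120.4 and 75.6 CPM in parental cells and 53.6 and 56.7 CPM in TRCs. It fell by 0.83 on the log2 scale (SE 0.27, FDR 0.0137), a call lost without parental replicate 1 (−0.46, FDR 0.210), without TRC replicate 1 (−0.81, FDR 0.177) and without TRC replicate 3 (−0.88, FDR 0.123). Of 9 mitochondrial carriers tested, 0 were called by the edgeR exact test, its quasi-likelihood test or DESeq2, 1 was lower at an unadjusted p under 0.05 in the exact test, and the median was −0.091. *Slc25a44*, the carrier of branched-chain amino acids, measured 44.6 and 67.2 CPM in parental cells and 36.1 and 39.3 CPM in TRCs (FDR 0.117 in the edgeR exact test, and 0.0163 without parental replicate 1, where it was called lower), and *Slc25a22*, a glutamate carrier, 9.68 and 5.44 CPM in parental cells and 14.2 and 10.9 CPM in TRCs (FDR 0.230).

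Of the 14 transcription factors and kinases in the list of the amino acid response, 2 were called higher and 3 lower in TRCs by the edgeR exact test. The median log2 fold change was −0.48, and among all genes tested 8.81% were called higher and 7.05% lower. *Hif1a*, *Epas1*, *Myc*, *Max* and *Nfe2l2* are in this list but not part of the GCN2 and ATF4 response. *Hif1a*, the oxygen-regulated transcription factor, measured 241 and 278 CPM in parental cells and 578 and 429.9 CPM in TRCs (log2 fold change 0.96, SE 0.23, FDR 0.00209). *Eif2ak3* (PERK), the kinase of the endoplasmic reticulum that also leads to ATF4, measured 70.2 and 79.3 CPM in parental cells and 149.5 and 117 CPM in TRCs (0.83, SE 0.22, FDR 0.00567). For both the TRC libraries were above the parental libraries, and both calls were lost without TRC replicate 1 (FDR 0.126 and 0.198), that of *Eif2ak3* also without parental replicate 1 (FDR 0.0597). The 3 called lower were *Atf5*, *Cebpb* and *Atf3*, and none of them was called without parental replicate 1. *Atf5* measured 230.1 and 35.9 CPM in parental cells and 18.96 and 38.6 CPM in TRCs, with overlapping groups, and by DESeq2 its FDR was 0.184. Without parental replicate 1 the FDR of *Atf5* was 0.631, that of *Cebpb* 0.602 and that of *Atf3* 0.867. Without TRC replicate 1 their FDRs were 0.179, 0.335 and 0.353, and without TRC replicate 3 those of *Cebpb* and *Atf3* were 0.0874 and 0.139. Which genes of this list were called lower depended on which parental library was left out. *Eif2ak4* (GCN2) measured 48.4 and 51.0 CPM in parental cells and 53.6 and 56.8 CPM in TRCs (FDR 0.716).

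Of the 14 target genes of the response that are not transporters, 2 were called higher and 2 lower by the edgeR exact test. Among all genes tested 8.81% were called higher and 7.05% lower. The median log2 fold change of the targets was −0.55. The number of targets called in each direction depended on which parental library was left out. *Phgdh*, the first enzyme of serine synthesis, measured 335 and 300.0 CPM in parental cells and 164 and 154 CPM in TRCs. The parental libraries were close to each other and both TRC libraries below them, and the log2 fold change of −0.997 (SE 0.19, FDR 0.000335 in the edgeR exact test) was called with each library left out. *Cth*, which makes cysteine from cystathionine, fell by 1.33 on the log2 scale (SE 0.36, FDR 0.00723), a call lost without parental replicate 1 (−1.03, FDR 0.0987) and without TRC replicate 3 (−1.02, FDR 0.217). *Ddit4*, an inhibitor of mTORC1 signaling induced by hypoxia and stress, measured 36.7 and 14.9 CPM in parental cells and 76.9 and 117.5 CPM in TRCs (1.91, SE 0.39, FDR 1.37e-05). It was called with each library left out, with a log2 fold change of 2.71 without parental replicate 1 and 1.41 without parental replicate 3. *Vldlr*, with parental libraries 9.53-fold apart, had a log2 fold change of 1.97 (SE 1.34, FDR 0.0311), which was 4.37 without parental replicate 1 and 1.11 without parental replicate 3. The call was lost without TRC replicate 1 (FDR 0.0745), without TRC replicate 3 (FDR 0.244), with no filter (FDR 0.0599), with trended dispersions (FDR 0.0750), by the quasi-likelihood test (FDR 0.145) and by DESeq2 (FDR 0.328).

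**Figure D5:**
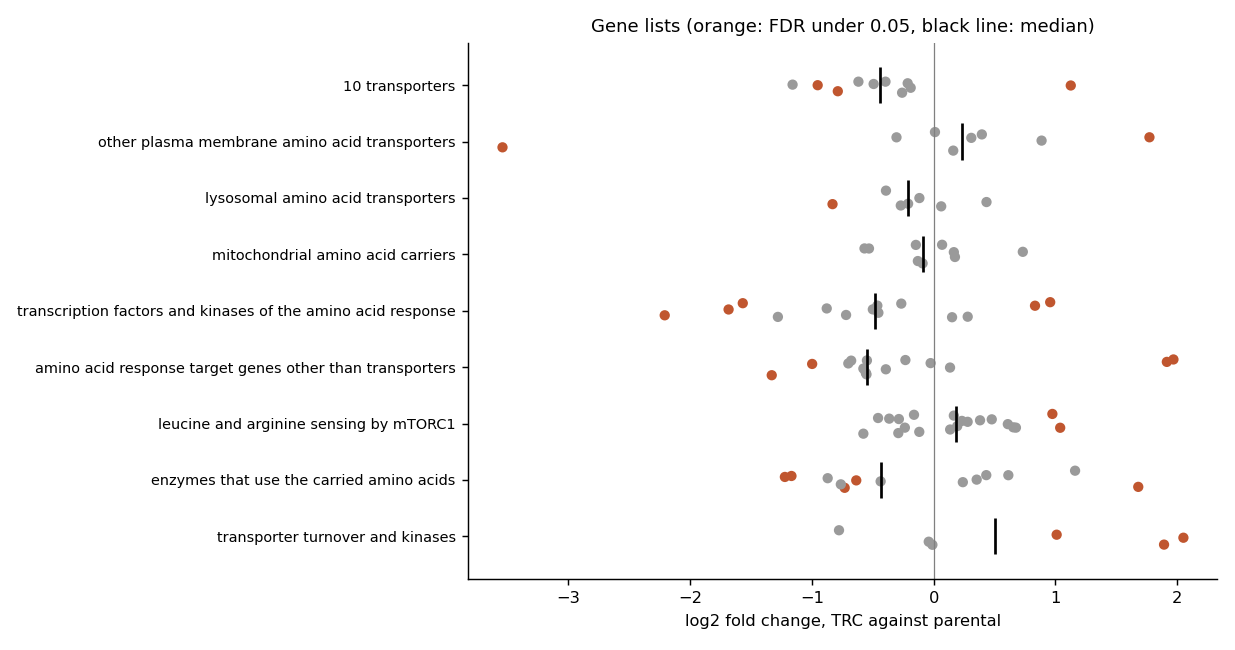
Points show the log2 fold change of TRCs against parental cells for each tested gene of the 10 transporters and of the other lists, with called genes in orange and the median of each list as a black line. The medians lie between −0.55 for the response targets and 0.50 for the genes of transporter turnover, and *Slc7a11* at −3.54 is the lowest point.

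The plot of fold changes by list sets the 10 transporters, with a median of −0.44 and 3 of 10 called, between the response targets (−0.55, 4 of 14 called) and the other plasma membrane transporters (0.24, 2 of 8 called), beside 15.9% called among all genes tested.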

How the data were processed

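The authors trimmed single-end reads of stranded polyA libraries with Trimmomatic 0.35, used TopHat2 2.1.0 with Ensembl 75 annotation for alignment to GRCm38, and obtained gene counts with HTSeq. The deposited values are raw counts per gene, without normalization, from the 4 libraries. The mode and strand setting of the counting are not given in the sources used here. Totals that are not genes were removed. Of alignments, 2.95% to 4.25% fell on no gene and 0.825% to 0.955% were ambiguous.

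Genes with at least 1 CPM in at least 2 libraries were kept. Scaling (TMM), dispersions (common and tagwise) and exact test were run in edgeR 4.0.16 (R 4.3.3) with a prior count of 0.125, following the study's methods, with Benjamini-Hochberg FDR over all 11483 genes. Standard errors are from DESeq2 1.42.0, the fold changes with the words "fold higher" or "fold lower" are ratios of mean CPM, and the biological coefficient of variation was 21.2%. Levels between genes are CPM per kilobase of all exons (GENCODE M21, GRCm38). Ratios of 6 pairs of transporters were compared by a two-sided exact permutation test. The fits were also run on simulated counts with known changes. These were drawn gene by gene with the dispersions estimated here, so they hold no library that deviates in related genes together.

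The 10 transporters, 8 further gene lists and 3 marker lists were chosen with earlier results of these data known. Named genes are the 10 transporters and, per list, at most 4 genes per direction, in order of FDR, among those under 0.05, or the 2 smallest where none passed. The genes *Trib3*, *Ddit3*, *Asns*, *Atf4*, *Chac1*, *Nupr1*, *Pycr1* and *Eif2ak4*, those overlapping a transporter and the set of light chains were named after their values were seen. So were *Cebpg*, *Epas1*, *Myc*, *Max*, *Nfe2l2*, *Slc7a7*, *Cd68* and *Lyz2*. Some genes that this rule selects are not reported here, though list counts include them. Alternatives were 3 filters, 2 scalings, trended dispersions, the quasi-likelihood test with and without a replicate block, DESeq2's Wald test, ratios of mean CPM without a prior count and each library left out in turn. With 1 library left in a group, that library was assumed to vary like the other group. The length of the longest transcript was an alternative chosen after seeing the data. Plots were drawn with matplotlib 3.10.9.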

Additional observations from a re-analysis of the deposited data

How the results depend on the processing

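Under the 3 other filters, both other scalings, trended dispersions and DESeq2's Wald test, *Slc7a1*, *Slc38a2* and *Slc43a2* stayed called and the direction of all 10 transporters held, *Slc1a4* being called in addition with library size only (FDR 0.0465). edgeR's quasi-likelihood test called 567 genes higher and 487 lower over all genes, against 1012 and 810 by the exact test, and all its calls were also calls of the exact test (1054 of 1054). It called *Slc7a1* (FDR 0.0379) and *Slc43a2* (FDR 0.0447) but not *Slc38a2* (FDR 0.0789), so 1 transporter was lower. Of the 90 tested genes in the other lists, each counted once, it called 7 higher and 5 lower, against 11 and 11 by the exact test. Same-numbered libraries did not deviate together (r = 0.027 over 11483 genes), so the numbers were not taken as pairs. With the replicate block the quasi-likelihood test called 477 genes higher and 308 lower, 3 and 4 in the other lists and 0 transporters in either direction (*Slc7a1* FDR 0.053, *Slc43a2* 0.0629, *Slc38a2* 0.0897). With a library left out, 500 to 1078 genes were called higher and 269 to 854 lower, with 0 to 1 transporters higher and 1 to 3 lower, and 4 to 13 genes of the other lists higher and 4 to 19 lower. Over these fits the log2 fold change ran from −0.52 to 0.25 for *Slc7a5*, −0.79 to 0.15 for *Slc3a2*, −1.06 to 0.023 for *Slc1a5* and −0.84 to 0.72 for *Slc6a9*. The log2 ratio ran from −0.39 to 0.57 for *Slc7a6* to *Slc3a2*, −0.31 to 0.49 for *Slc7a5* to *Slc7a6*, −0.29 to 1.28 for *Slc1a5* to *Slc1a4* and −0.64 to 0.061 for *Slc38a2* to *Slc38a1*. The cause of these changes was not tested. With the longest transcript as length, the mean level over the 4 libraries was 18.5 CPM per kilobase for *Slc7a6*, 35.2 for *Slc1a5*, 68.4 for *Slc38a1*, 107 for *Slc38a2*, 48.4 for *Slc7a1* and 8.56 for *Slc6a9*. The depth was far above the limit of detection for all 10 transporters, and 2 libraries per group limit the comparison.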

Other observations

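Of 6 tested genes that control turnover of membrane proteins, 3 were called higher in TRCs by the edgeR exact test and 0 lower (0 also at an unadjusted p under 0.05, and 0 by the quasi-likelihood test and by DESeq2), with a median log2 fold change of 0.50, beside 8.81% of all genes tested called higher and 7.05% lower. *Arrdc3*, an arrestin-related adaptor that directs membrane proteins to ubiquitination, measured 20.8 and 16.8 CPM in parental replicates 1 and 3, and 58.4 and 80.9 CPM in TRC replicates 1 and 3. Both TRC libraries were above both parental libraries, and the rise of 1.89 on the log2 scale (SE 0.26, FDR 1.40e-10) was called with each library left out and by each other test. *Txnip*, the related inhibitor of glucose uptake, measured 74.99 and 15.9 CPM in parental cells and 125 and 251 CPM in TRCs. Its log2 fold change was 2.05 (SE 1.05, FDR 0.00288 in the edgeR exact test), and 3.57 without parental replicate 1. The call was lost by DESeq2 (FDR 0.170), by the quasi-likelihood test with and without the replicate block, and without TRC replicate 3. *Sgk3*, a kinase known to raise carrier activity, rose by 1.01 (SE 0.26, FDR 0.00131), a call lost without TRC replicate 1 (FDR 0.138). The ubiquitin ligases *Nedd4* and *Nedd4l* and the kinase *Sgk1*, named after their values were seen, were not called. Their log2 fold changes were −0.010, −0.040 and −0.78 (FDR 0.985, 0.938 and 0.260 in the edgeR exact test). The groups overlapped for each of them.

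Of 20 genes of leucine and arginine sensing by mTORC1, 2 were called higher by the edgeR exact test and 0 lower (4 higher at an unadjusted p under 0.05 and 0 lower, and 0 lower by the quasi-likelihood test and by DESeq2), with a median of 0.18, a share near that of all genes tested (8.81% called higher). Both belong to the sestrins, stress-induced inhibitors of mTORC1. *Sesn3* measured 26.0 and 29.3 CPM in parental cells and 64.7 and 43.9 CPM in TRCs (0.97, SE 0.27, FDR 0.00326), and *Sesn1* 14.7 and 14.3 CPM in parental cells and 34.8 and 24.8 CPM in TRCs (1.04, SE 0.28, FDR 0.00766). The groups did not overlap for either, and both calls were lost without TRC replicate 1 (FDR 0.228 and 0.284), that of *Sesn1* also without parental replicate 3 (FDR 0.0670). *Sesn2*, a target of ATF4 that is also in the list of response targets and was named after its values were seen, had a log2 fold change of −0.58 (FDR 0.183) with overlapping groups.

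Of 13 enzymes that use the carried amino acids, 1 was called higher and 4 lower by the edgeR exact test, with a median of −0.44, beside 8.81% higher and 7.05% lower among all genes tested. *Shmt2* and *Shmt1*, which convert serine to glycine in mitochondria and in the cytosol, fell by 1.17 and 1.22 on the log2 scale (FDR 0.000565 and 0.000407). The call of *Shmt2* held with each library left out (−0.74 without parental replicate 1 and −1.497 without parental replicate 3), and that of *Shmt1* was lost without TRC replicate 3 (FDR 0.0516). *Gls2*, an enzyme of glutamine breakdown, measured 0.876 and 1.104 CPM in parental cells and 2.38 and 3.96 CPM in TRCs (1.68, FDR 0.0107), a call lost in all fits without 1 library but that without TRC replicate 1 (FDR 0.0214 to 0.243). *Bcat1*, which transaminates branched-chain amino acids, fell by 0.73 (FDR 0.0450), a call lost without parental replicate 1 (FDR 0.456), TRC replicate 1 (FDR 0.363) and TRC replicate 3 (FDR 0.133).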
